A study of Oryza sativa Japonica Group with 9 samples.

Results

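Developing rice grains (caryopses) of plants edited in GSK5 were compared with those of unedited wild-type plants (WT) by RNA sequencing. GSK5 is a GSK3/SHAGGY-like protein kinase that the title of the series calls a negative regulator of grain size and weight, and the comparison asks which transcripts differ in level between the edited and the unedited plants. The members were chosen by label: 3 GSK5 and 3 WT libraries of the 9 in the series, the other 3 being from ARF4-edited plants, which are given here as context only (ARF4 is an auxin response factor). All 9 came from the japonica cultivar Nipponbare, and the sample labels give day 9 after flowering where the series text gives days 7 to 8. The labels give neither the edited allele nor the number of edited lines, so the edit and any other difference between the edited line and WT plants cannot be told apart. Nor do they tell whether replicate libraries were taken from different plants, and p-values therefore rest on a spread between libraries that may be technical. Of 55986 gene models in the authors' table, 22676 reached 1 FPKM (fragments divided by gene model length and by the library's mapped total) in at least 3 of the 6 libraries and were tested. All changes below are differences between group means of log2(FPKM + 1), GSK5 minus WT, which understate the change of genes with low FPKM, and a gene is called when its limma p-value, adjusted by the Benjamini-Hochberg method over all genes tested, is under 0.05.

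GSK3/SHAGGY-like kinases of plants phosphorylate transcription factors and other proteins, and are best known as brakes on brassinosteroid signalling, where they hold the transcription factor BZR1 inactive until the hormone is perceived. In rice GSK5 has been reported to bind and phosphorylate ARF4, which links the kinase to auxin-dependent transcription in the grain. The caryopsis at this age holds a green pericarp and other maternal layers around a young endosperm and embryo, and the endosperm is filled with starch and storage protein as it matures.

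The labelled tissue was first set against its marker genes. Floral and maternal regulators were abundant: MADS8, a SEPALLATA-type floral organ factor, had 689, 825 and 797 FPKM in GSK5 libraries, against 534, 669 and 734 FPKM in WT libraries. MADS13, which specifies ovules, had 162, 204 and 188 FPKM in GSK5 libraries, against 98.9, 152 and 175 FPKM in WT libraries. SWEET11, a sucrose exporter that feeds the developing endosperm, had 1281, 1473 and 1370.3 FPKM in GSK5 libraries, against 293, 571 and 1516 FPKM in WT libraries. Several transcripts of the starchy endosperm were low: GBSSI, the granule-bound enzyme that makes amylose, had 4.16, 1.93 and 1.36 FPKM in GSK5 libraries, against 0.33, 0.22 and 0.66 FPKM in WT libraries. The glutelin genes GluA3, GluB2, GluB4 and GluB5 lay at or below 0.08 FPKM in all 6 libraries, GluA1 lay below 1 FPKM in all 6, and GluA2 lay higher, at 3.28 to 3.57 FPKM in GSK5 libraries and 2.96 to 4.04 FPKM in WT libraries. NF-YB1, an endosperm transcription factor, did not exceed 0.48 FPKM. The embryo genes OLE18 and EMP1 were also below 1 FPKM in all 6. Of 5 starchy endosperm markers 4 reached 1 FPKM in at least 1 of the 6 libraries, and their summed level was 66.6 to 70.4 FPKM in GSK5 libraries and 44.2 to 69.6 FPKM in WT libraries. The label caryopsis therefore stands beside levels below 1 FPKM for 5 of these 6 glutelin genes in both groups, while the starchy endosperm markers as a sum were detected in every library. Most of that sum came from markers other than GBSSI and NF-YB1. In whole grains, fewer cells of a type and less RNA per cell cannot be told apart.

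**Figure D1:**
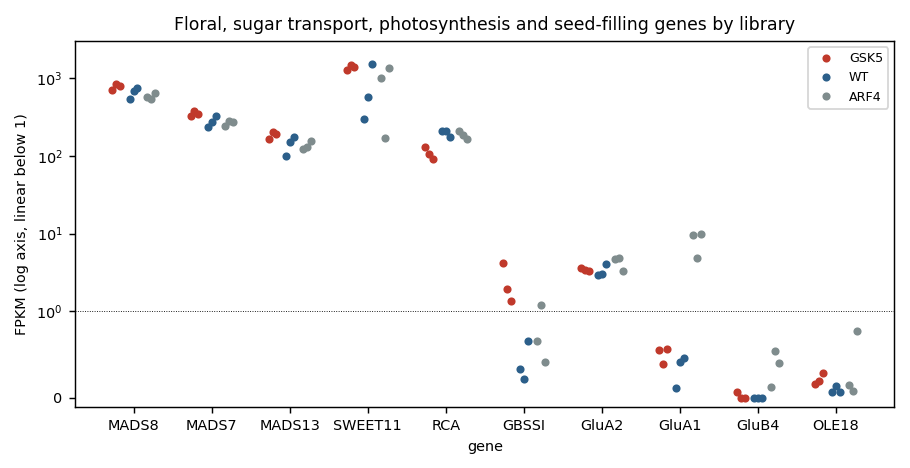
Levels of 10 genes in each library, in FPKM on an axis that is logarithmic above 1 and linear below it (dotted line at 1 FPKM); each point is 1 library, with GSK5 left of WT and ARF4 at the right of each gene. Floral factors and SWEET11 lie at about 100 FPKM or more in all GSK5 libraries, while GluA1, GluB4 and OLE18 lie below 1 FPKM in all GSK5 and WT libraries.

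The GSK5 libraries resembled each other more than the WT libraries did. Across the 22676 genes tested, the SD over 3 libraries on the log2 scale had a median of 0.112 in GSK5 and 0.271 in WT. Pearson's r between libraries, over genes and so not over independent replicates, was 0.961 to 0.983 within GSK5 and 0.878 to 0.94 within WT. Within WT the lowest r was that of replicates 1 and 3, at 0.878, while replicate 2 had 0.94 with replicate 1 and 0.932 with replicate 3. WT replicate 3 was the WT library most like GSK5: its r with the GSK5 libraries was 0.926 to 0.943, and it was the WT library nearest to the GSK5 mean for 56.7% of genes tested. WT replicate 1 was the farthest from GSK5, at 0.849 to 0.869. Summed FPKM was 585414 to 626390 per library over all 9, and the GSK5 libraries held 22430 to 23020 genes at 1 FPKM or more, against 20840 to 22305 in WT. Absolute depth is unknown, since the table gives no counts.

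The locus taken as GSK5 (LOC_Os03g62500, a name that could not be checked against the reference) had 31.1, 33.99 and 31.6 FPKM in GSK5 libraries, against 32.1, 39.3 and 47.96 FPKM in WT libraries. The groups overlapped, with 2 of the GSK5 libraries below every WT library, and the change of -0.28 (SE 0.16) was not called (adjusted p = 0.343). ARF4 had 75.4, 74.7 and 84.7 FPKM in GSK5 libraries, against 91.8, 92.5 and 67.6 FPKM in WT libraries, with a change of -0.09 (SE 0.15, adjusted p = 0.734). In the ARF4-edited libraries ARF4 stood at 54.2, 49.5 and 47.6 FPKM. Editing alters the DNA of a gene and need not alter its transcript level, so the level of LOC_Os03g62500 is no check of the genotype. None of the 9 GSK3/SHAGGY-like kinases tested was called, and their median change was 0.01, beside 0.11 over all genes tested (-0.1 and 0.02 under median-of-ratios scaling).

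In all, 552 genes were called, 2.43% of those tested. Of these, 398 were higher in GSK5 (1.76% of genes tested) and 154 lower (0.679%), and in all of them the GSK5 and WT libraries did not overlap. That separation alone is common here: 30.2% of genes tested had groups that did not overlap, 18.3% with GSK5 above and 12% with GSK5 below. At an unadjusted p under 0.05, 4618 genes passed. The median change was 1.78 over the genes called higher and -1.4 over those called lower. Changes of at least 2 on that scale were found in 169 of the genes called higher and 34 of those called lower, and changes of at least 4 in 39 and 4 genes. The number of calls depended on single libraries: it was 212, 221 and 221 without GSK5 replicates 1, 2 and 3, and 512, 241 and 4430 without WT replicates 1, 2 and 3. All 552 genes were also called without WT replicate 3, and 164 of those called higher and 11 of those called lower were called in all 6 of these fits.

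The surplus of higher calls came from genes with little or no WT signal. Of the 398 genes called higher, 242 had 1 FPKM or more in all 3 GSK5 libraries and in no WT library. Such genes entered the test only through the group in which they were high, so their direction was fixed by the filter. In the reverse case, 90 genes were at 1 FPKM or more in all 3 WT libraries and no GSK5 library, and 25 of them were called lower. Among the 19513 genes at 1 FPKM or more in all 6 libraries, 113 were called higher and 113 lower. Genes just inside the filter, with exactly 3 of 6 libraries at 1 FPKM or more, numbered 999 and had median levels of 1.42 FPKM in GSK5 and 0.823 FPKM in WT. Those just outside it, with exactly 2, numbered 729 and had median levels of 0.937 FPKM in GSK5 and 0.74 FPKM in WT. By mean level over the 6 libraries, 225 genes were called higher and 50 lower below 5 FPKM, whereas at 100 FPKM or more 4 were called higher and 8 lower. By chromosome, as given in the gene identifiers, the share called higher was lowest on chromosome 2 (1.09%) and highest on chromosome 11 (3.31%). The share called lower was also lowest on chromosome 2 (0.262%) and was highest on chromosome 12 (1.09%).

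**Figure D2:**
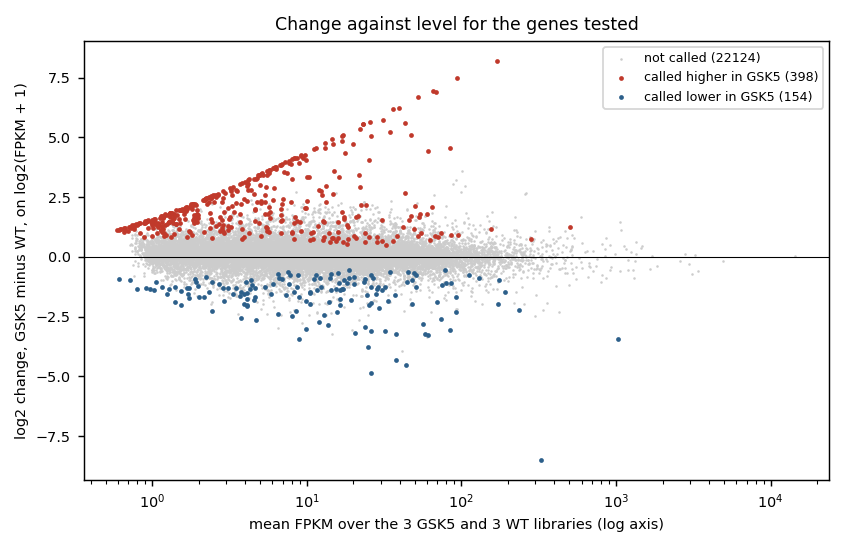
Change on the log2(FPKM + 1) scale (vertical axis) against the mean FPKM of the 6 libraries (horizontal log axis) for the 22676 genes tested; each point is 1 gene, with the 398 called higher in GSK5 in red, the 154 called lower in blue and the rest in grey. The red points form a rising upper edge of genes with almost no WT signal, with no such edge among the blue points.

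One set of genes was expressed in the GSK5 libraries and close to 0 in the WT libraries. There were 71 genes at 5 FPKM or more in all 3 GSK5 libraries and below 0.5 FPKM in all 3 WT libraries, and no gene showed the reverse. Since the rule uses the contrast itself, these counts are a description and carry no test. Their GSK5 means ran from 5.3 to 338 FPKM, with a median of 13.8 FPKM, and 21 of them were listed at 0 in every WT library. Their differences on the log2(FPKM + 1) scale, which are no fold change for a gene listed at 0, ran from 2.58 to 8.2 with a median of 3.87. They lay on all 12 chromosomes, only 3 pairs of them had neighbouring identifiers, and none was a member of the gene lists described below. Within GSK5 their median coefficient of variation was 10.7%, beside 8.83% over all genes tested. Other thresholds gave 109 genes against 2 in the reverse direction (2 and 0.2 FPKM), 43 against 0 (10 and 0.5 FPKM) and 47 against 0 (5 and 0.1 FPKM).

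The ARF4 libraries divided these 71 genes into distinct patterns. In 22 of them all 3 ARF4 libraries were at 0.5 FPKM or more, and the median level in ARF4 replicates 1, 2 and 3 was 0.932, 0.972 and 1.02 times the GSK5 mean. In 45 of them, spread over 11 chromosomes, ARF4 replicates 1 and 3 were at 0.5 FPKM or more and ARF4 replicate 2 was below it. There the median ratio to the GSK5 mean was 0.477 in replicate 1 and 0.505 in replicate 3, with interquartile ranges of 0.377 to 0.599 and 0.346 to 0.577, and 0.000788 in replicate 2. The 4 that remain were below 0.5 FPKM in ARF4 replicates 1 and 2, and 3 of them also in replicate 3. ARF4 replicate 2 was below 0.5 FPKM in 49 of the 71 genes, so the libraries labelled ARF4 differed from each other here. The GSK5 libraries all had to reach 5 FPKM for a gene to be counted, a condition not set on the ARF4 libraries. All 9 libraries carry the same cultivar label, and whether the plants behind them shared one genetic background was not tested, neither for ARF4 nor for GSK5 against WT.

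**Figure D3:**
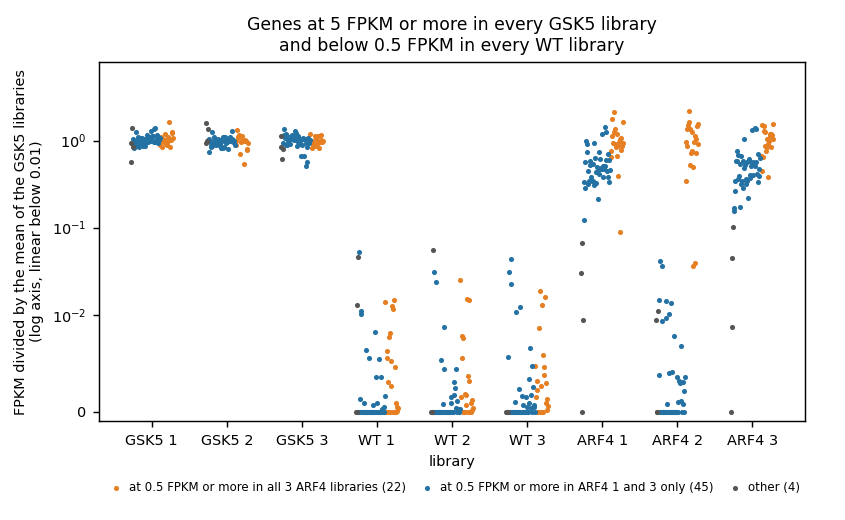
Level of each of the 71 genes in each library, divided by its mean over the 3 GSK5 libraries, on an axis that is logarithmic above 0.01 and linear below it; points are genes, coloured by their pattern over the ARF4 libraries. The 45 genes in blue lie at about 0.5 in ARF4 1 and 3 and near 0 in ARF4 2, and the 22 in orange lie near 1 in most ARF4 libraries.

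The 12 genes called higher with the largest changes had log2 changes of 5.55 to 8.2, with adjusted p from 2.3e-06 to 0.00053. In all 12 every WT library was below 1 FPKM, the highest WT mean being 0.783 FPKM. These genes passed the filter only through the GSK5 libraries, so their direction was fixed. The table and the reference do not pair them with names, and the largest are given by identifier. LOC_Os03g02470 had 357, 320.1 and 338 FPKM in GSK5 libraries, against 0.14, 0.12 and 0.19 FPKM in WT libraries, a change of 8.20 (SE 0.09, adjusted p = 2.3e-06). LOC_Os07g26100 had 237, 145 and 179 FPKM in GSK5 libraries, against 0.02, 0.03 and 0.03 FPKM in WT libraries, a change of 7.49 (SE 0.19, adjusted p = 2.28e-05). In both, every GSK5 library lay far above every WT library. The ARF4 libraries were also high, at 557, 312 and 521 FPKM for the first gene and 175, 293 and 197 FPKM for the second.

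The 12 genes called lower with the largest changes differed by 3.12 to 8.49 in absolute log2 change, with adjusted p from 8.6e-05 to 0.0438. LOC_Os10g22630 had 0.85, 0.48 and 0.88 FPKM in GSK5 libraries, against 914, 671 and 384 FPKM in WT libraries, a change of -8.49 (SE 0.32, adjusted p = 8.6e-05). LOC_Os01g27140 had 0.42, 0.54 and 1.23 FPKM in GSK5 libraries, against 71.8, 55.4 and 27.8 FPKM in WT libraries, a change of -4.85 (SE 0.37, adjusted p = 0.0022). The groups did not overlap in either gene. The ARF4 libraries lay between, at 232, 359 and 271 FPKM for LOC_Os10g22630 and 9.34, 4.19 and 6.88 FPKM for LOC_Os01g27140. The 2 genes named in each direction were called under all 17 alternative settings. LOC_Os10g22630 passed the filter only through the WT libraries, and LOC_Os03g02470 and LOC_Os07g26100 only through the GSK5 libraries. The filter fixed their direction, and their calls carry no more than the listed values.

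Gene lists for hormones, grain growth, filling, tissue and stress held 350 distinct genes that were tested. Of these, 10 were called higher and 1 lower, 3.14% in all, beside 2.43% of all genes tested. The calls fell in 6 of 33 lists, and the heat shock list held 5 of them. For 1 of the 10, LOC_Os11g40530, all WT libraries were at 0 and the filter fixed the direction. Beside the losses by single libraries given below, the calls of RR4, HSFA2C, HSFB2B and MADS16 were lost with all 9 libraries in the fit, those of RR4 and HSFA2C without the mean-variance trend, and those of HSP101, HSFA2C and LOC_Os03g16030 with no filter. HSP101 was also lost under quantile normalization and LOC_Os03g16030 with a pseudocount of 0.1. Blocking by replicate kept only 169 of the 552 calls, and any losses of list members under that fit are not itemized here or below. List calls not named in this paragraph can therefore not be taken as unaffected by it, except where all 17 alternative settings are said to keep them.

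In the cytokinin response and turnover list, 6 of 9 members tested had all 3 GSK5 libraries below all 3 WT libraries, and 1 had them above. Over all genes tested, 12% had GSK5 below and 18.3% above. The list's median change was -0.53, beside 0.11 over all genes tested. Of its members 1 was called lower and 1 higher, beside 0.679% and 1.76% of all genes tested. RR4, a type-A response regulator that is induced by cytokinin and dampens its signal, had 15.03, 14.7 and 15.3 FPKM in GSK5 libraries, against 23.9, 22.1 and 21.7 FPKM in WT libraries. It fell by 0.56 in log2 terms (SE 0.09, adjusted p = 0.0405), and every GSK5 library lay below every WT library. RR9 and RR10, of the same type, had similar values without passing the test: RR9 had 12.96, 13.2 and 13.5 FPKM in GSK5 libraries, against 20.9, 18.9 and 18.7 FPKM in WT libraries (change -0.53, adjusted p = 0.0526). RR10 had 16.5, 16.9 and 17.4 FPKM in GSK5 libraries, against 28.7, 24.8 and 23.8 FPKM in WT libraries (change -0.58, adjusted p = 0.0559). LOG, the enzyme that releases active cytokinin from its nucleotide, had 10.3, 5.86 and 9.14 FPKM in GSK5 libraries, against 35.4, 23.9 and 20.1 FPKM in WT libraries. Its change of -1.54 (SE 0.27) lay just outside the threshold (adjusted p = 0.0502), although each GSK5 library was below each WT library. RR2, another type-A regulator, had 23.5, 22.4 and 22.5 FPKM in GSK5 libraries, against 27.7, 34.7 and 26.8 FPKM in WT libraries (change -0.36, adjusted p = 0.189). CKX4, a cytokinin-degrading oxidase, had 1.29, 1.64 and 2.51 FPKM in GSK5 libraries, against 3.04, 2.99 and 3.21 FPKM in WT libraries (change -0.56, adjusted p = 0.185). The member called higher was LOC_Os02g58350, whose name could not be checked, with 18.2, 19.6 and 19.4 FPKM in GSK5 libraries, against 9.54, 10.4 and 11.7 FPKM in WT libraries, a change of 0.80 (SE 0.11, adjusted p = 0.0229). The RR4 call was lost when any one of GSK5 replicates 1, 2 and 3 or WT replicates 1 and 2 was left out (adjusted p up to 0.225) and was kept without WT replicate 3 (adjusted p = 0.0206). That of LOC_Os02g58350 was lost without any one of GSK5 replicates 1, 2 and 3 or WT replicate 2 (up to 0.152).

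Heat shock genes, which encode chaperones and the factors that induce them, were the list with the most calls. Of 17 tested, 5 rose, none fell and 12 were not called, with a median change of 0.77, and in 9 all GSK5 libraries lay above all WT libraries. Over all genes tested, 1.76% were called higher and 18.3% had GSK5 above WT without overlap. HSP101, a chaperone that dissolves protein aggregates, had 2.83, 4.67 and 4.62 FPKM in GSK5 libraries, against 0.55, 0.84 and 1.12 FPKM in WT libraries. It rose by 1.45 (SE 0.22, adjusted p = 0.031), with no overlap between the groups. The heat shock factor HSFB2B had 3.85, 4.73 and 4.43 FPKM in GSK5 libraries, against 0.76, 1.01 and 1.48 FPKM in WT libraries, a rise of 1.37 (SE 0.18, adjusted p = 0.0169). HSFA2C, of the activating class, had 18, 20.6 and 17.6 FPKM in GSK5 libraries, against 9.28, 10.3 and 12.2 FPKM in WT libraries, a rise of 0.77 (SE 0.13, adjusted p = 0.0461). The groups were separate for both factors. Of the members whose names could not be checked, LOC_Os04g01740 had 12.8, 21.5 and 32.6 FPKM in GSK5 libraries, against 1.11, 2.79 and 3.38 FPKM in WT libraries, the widest change of the list at 2.74 (SE 0.41, adjusted p = 0.0295). LOC_Os03g16030 had 7.45, 13.6 and 16.2 FPKM in GSK5 libraries, against 0.61, 1.38 and 2.56 FPKM in WT libraries, a rise of 2.43 (SE 0.38, adjusted p = 0.0356). Small heat shock genes lie in a cluster of close copies, between which the authors' counting could divide reads, so single members are uncertain. In 13 of the 17 the change was above 0, as in 63.2% of all genes tested, and in 1 all GSK5 libraries lay below all WT libraries. The ARF4 libraries differed among themselves, HSFB2B standing at 13.7, 1.41 and 17.4 FPKM and HSFA2C at 41.8, 13.2 and 68.1 FPKM. None of the 5 calls was lost without WT replicate 3, and each was lost without WT replicate 2 and without GSK5 replicate 2 or 3. HSFB2B, LOC_Os03g16030 and HSFA2C also lost theirs without GSK5 replicate 1, and HSP101, LOC_Os03g16030 and HSFA2C without WT replicate 1. The highest adjusted p in these fits was 0.159 for HSP101, 0.108 for HSFB2B, 0.232 for HSFA2C, 0.151 for LOC_Os04g01740 and 0.177 for LOC_Os03g16030.

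**Figure D4:**
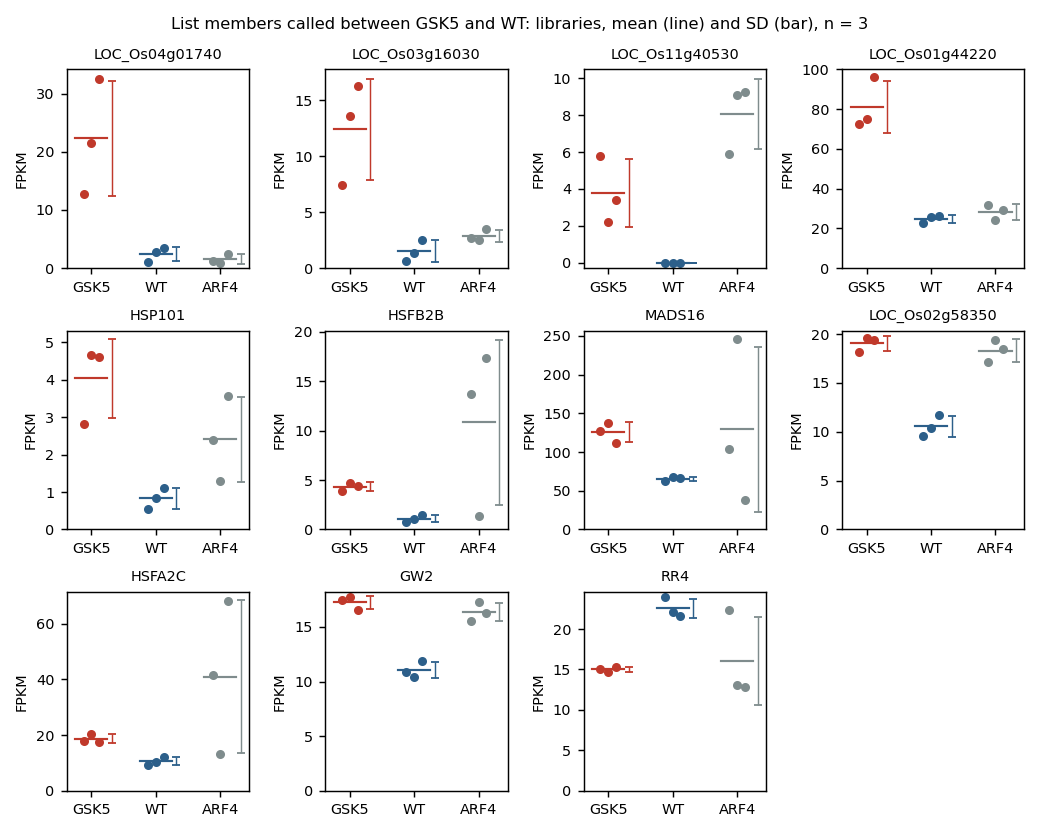
FPKM of the 11 list members called between GSK5 and WT, 1 panel per gene with its own axis; points are libraries, horizontal lines are means and bars are SD over 3 libraries, with GSK5 left of WT and the ARF4 libraries at the right as context. GSK5 and WT points do not overlap in any panel, and RR4 is the only panel in which GSK5 lies below WT.

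Among 19 cloned grain size loci tested, 1 rose, none fell and 18 were not called, with a median change of 0.31. Of all genes tested, 1.76% were called higher and 0.679% lower, and the median change was 0.11. GW2, an E3 ubiquitin ligase that limits grain width, had 17.4, 17.7 and 16.6 FPKM in GSK5 libraries, against 10.9, 10.4 and 11.9 FPKM in WT libraries. It rose by 0.60 (SE 0.10, adjusted p = 0.0418), without overlap. The call was lost without any one of GSK5 replicates 1, 2 and 3 or WT replicates 1 and 2 (adjusted p up to 0.235), and under median-of-ratios scaling and quantile normalization. SRS5, an alpha-tubulin of cell elongation and the most abundant member, had 927, 930.3 and 945 FPKM in GSK5 libraries, against 661, 666 and 973 FPKM in WT libraries, a change of 0.31 with overlapping groups (adjusted p = 0.456). PGL2, an atypical helix-loop-helix protein that promotes grain length, had 73.2, 108 and 84.7 FPKM in GSK5 libraries, against 23.6, 20.99 and 84.99 FPKM in WT libraries (change 1.30, adjusted p = 0.245), WT replicate 3 lying within the GSK5 range. Of the 19 loci tested, 4 had all GSK5 libraries above all WT libraries and 2 had them below. The shares of all genes tested were 18.3% and 12%. The SPL factors SPL13, which promotes grain length, and SPL14, which shapes the panicle, were higher in each GSK5 library than in each WT library without passing the test. SPL13 had 4.87, 4.58 and 3.85 FPKM in GSK5 libraries, against 2.03, 2.39 and 3.29 FPKM in WT libraries (change 0.62, adjusted p = 0.146). SPL14 had 2.97, 2.81 and 3.29 FPKM in GSK5 libraries, against 1.55, 2.07 and 2.46 FPKM in WT libraries (change 0.42, adjusted p = 0.225).

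Starch synthesis genes stood at a median change of 0.46 over 27 members tested, of which 1 rose, none fell and 26 were not called. Of all genes tested, 1.76% were called higher and 0.679% lower, and the median change was 0.11. The member that rose, LOC_Os01g44220, whose name could not be checked, had 72.3, 74.9 and 96.3 FPKM in GSK5 libraries, against 22.5, 25.9 and 26.01 FPKM in WT libraries. Its change of 1.66 (SE 0.14, adjusted p = 0.00337) was called under all 17 alternative settings, and the ARF4 libraries stood near WT at 31.9, 24.03 and 29.4 FPKM. GBSSI, whose values are given above, had a change of 1.24 (adjusted p = 0.118), but it passed the filter only through the GSK5 libraries, so its direction was fixed. PPDKB, a pyruvate orthophosphate dikinase active in the endosperm, had 11.9, 11.3 and 10.4 FPKM in GSK5 libraries, against 26.98, 17.2 and 17.6 FPKM in WT libraries (change -0.79, adjusted p = 0.105). The mean level of the list, on the log2 scale, was 4.86, 4.79 and 4.72 in the GSK5 libraries, against 3.85, 4.17 and 5.0 in the WT libraries, WT replicate 3 lying above every GSK5 library. Summed starchy endosperm markers, given above, lay within the GSK5 range in the highest WT library and below that range in the lowest. Their part in the result was not tested. Storage protein genes had 3 of 12 members tested and none called; GluA2, a glutelin, had 3.57, 3.43 and 3.28 FPKM in GSK5 libraries, against 2.96, 3.06 and 4.04 FPKM in WT libraries (change 0.03, adjusted p = 0.901). Of 10 endosperm regulators 3 were tested and none was called, and RSR1, an AP2-type factor that restrains starch genes, had 28.3, 24.3 and 25.7 FPKM in GSK5 libraries, against 49.4, 35.1 and 22.8 FPKM in WT libraries (change -0.38, adjusted p = 0.432).

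No gene of sucrose breakdown and sugar transport was called among 16 tested, and the list's median change was 0.1, the value of all genes tested being 0.11. SWEET11, the most abundant member, had a change of 1.11 (SE 0.59, adjusted p = 0.324) with WT replicate 3 above all GSK5 libraries. SWEET15, which acts with it in seed filling, had 275, 260.4 and 338 FPKM in GSK5 libraries, against 178, 111 and 203 FPKM in WT libraries (change 0.86, adjusted p = 0.153). SUS5, a sucrose synthase of low level, had 1.18, 1.56 and 1.9 FPKM in GSK5 libraries, against 0.11, 0.31 and 0.61 FPKM in WT libraries (change 0.93, adjusted p = 0.0851). It passed the filter only through the GSK5 libraries, so its direction was fixed. The sucrose importers differed in sign: SUT1 had 112, 114 and 105 FPKM in GSK5 libraries, against 138, 187 and 119 FPKM in WT libraries (change -0.40, adjusted p = 0.283). SUT4 had 15.5, 13.6 and 20.7 FPKM in GSK5 libraries, against 8.79, 10.9 and 12.2 FPKM in WT libraries (change 0.59, adjusted p = 0.178). In the last 4 genes named the groups did not overlap, and they were the only such members of the list. Of the 16 tested, 3 thus lay wholly above WT and 1 wholly below, beside 18.3% and 12% of all genes tested.

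Brassinosteroid genes, the best known setting of these kinases, gave no call among 12 tested, with a median change of 0.19. BRD1, the oxidase of the last steps of brassinosteroid synthesis, had 475, 555 and 461 FPKM in GSK5 libraries, against 250.4, 382 and 330.4 FPKM in WT libraries (change 0.65, adjusted p = 0.173). Of the 12 tested, 10 had a change above 0, as in 63.2% of all genes tested. The cytochromes P450 D2 and D11 of the pathway were the members with the opposite sign. D2 had 12.4, 11.7 and 10.8 FPKM in GSK5 libraries, against 33.5, 19.2 and 13.2 FPKM in WT libraries (change -0.77, adjusted p = 0.245). D11 had 8.67, 7.63 and 6.9 FPKM in GSK5 libraries, against 10.9, 9.65 and 9.13 FPKM in WT libraries (change -0.32, adjusted p = 0.243). BZR1, the transcription factor of the pathway, had 20.97, 21.97 and 25.2 FPKM in GSK5 libraries, against 10.9, 16.9 and 20.4 FPKM in WT libraries (change 0.51, adjusted p = 0.269). Groups were separate in each of these 4 genes. Of the 12 tested, 3 had all GSK5 libraries above all WT libraries and 2 had them below. The shares of all genes tested were 18.3% and 12%. BU1, a helix-loop-helix protein induced by brassinosteroid, had 5.14, 7.99 and 9.28 FPKM in GSK5 libraries, against 0, 0.26 and 5.54 FPKM in WT libraries, the widest change of the list at 2.04 (SE 0.72, adjusted p = 0.203), with WT replicate 3 inside the GSK5 range.

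Auxin genes gave no call either. Of 23 auxin response factors tested, 20 had a change above 0 (63.2% of all genes tested), with a median of 0.29, and ARF1 had the widest change, 0.87 (adjusted p = 0.349), with 20.4, 23.1 and 20.8 FPKM in GSK5 libraries, against 4.76, 12.3 and 23.2 FPKM in WT libraries. WT replicate 3 was above the GSK5 libraries there and WT replicate 1 far below them. The 23 Aux/IAA repressors tested had a median of 0.36. IAA17, the most abundant of them, had 210.4, 245 and 215 FPKM in GSK5 libraries, against 52.7, 130.2 and 245 FPKM in WT libraries (change 0.90, adjusted p = 0.36), and IAA12, of low level, had 1.82, 3.92 and 3.18 FPKM in GSK5 libraries, against 0, 0.09 and 1.3 FPKM in WT libraries (change 1.51, adjusted p = 0.117). Among 9 genes of auxin supply, transport and conjugation the median change was 0.56. FIB, an aminotransferase of auxin synthesis, had 57.8, 73.05 and 57.8 FPKM in GSK5 libraries, against 10.6, 20.2 and 74.96 FPKM in WT libraries (change 1.26, adjusted p = 0.319), again with WT replicate 3 above the GSK5 libraries. GH3-4, of the enzymes that conjugate auxin to amino acids, had 1, 0.8 and 0.84 FPKM in GSK5 libraries, against 3.2, 3.99 and 1.32 FPKM in WT libraries (change -0.96, adjusted p = 0.167) with no overlap. The mean level of the response factors on the log2 scale was 4.26, 4.26 and 4.28 in the GSK5 libraries, against 3.55, 4.03 and 4.22 in the WT libraries. Of 14 gibberellin, abscisic acid and ethylene genes tested none was called (median change -0.04), and ABA8ox2, which inactivates abscisic acid, had 5.01, 2.84 and 2.44 FPKM in GSK5 libraries, against 12.6, 21.7 and 4.67 FPKM in WT libraries (change -1.49, adjusted p = 0.2).

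Genes of floral organ identity gave 1 rise among 12 tested, with 11 not called and a median change of 0.28. Of all genes tested, 1.76% were called higher, and their median change was 0.11. MADS16, which specifies lodicules and stamens, had 127, 138 and 112 FPKM in GSK5 libraries, against 62.5, 67.1 and 66.9 FPKM in WT libraries. It rose by 0.93 (SE 0.11, adjusted p = 0.0146), without overlap between the groups, while the ARF4 libraries ran widely at 104, 246 and 37.5 FPKM. The call was lost without GSK5 replicate 1 or 2 or WT replicate 2 (adjusted p up to 0.0974). Of the APETALA1-type factors, MADS15 and MADS14 had changes below 0. MADS15 had 44.9, 34.8 and 41.1 FPKM in GSK5 libraries, against 93.5, 86.6 and 62.7 FPKM in WT libraries (change -0.98, adjusted p = 0.0596). MADS14 had 16.8, 10.9 and 12.04 FPKM in GSK5 libraries, against 35.7, 26.6 and 18.9 FPKM in WT libraries (change -0.96, adjusted p = 0.138). Neither passed the test, though in both all GSK5 libraries lay below all WT libraries. Of the 12 tested, 4 lay wholly below WT and 3 wholly above, beside 12% and 18.3% of all genes tested. MADS34, a SEPALLATA-type factor of the panicle, had 6.86, 6.68 and 6.74 FPKM in GSK5 libraries, against 4.5, 4.18 and 3.52 FPKM in WT libraries (change 0.62, adjusted p = 0.0746). MADS21, the most abundant member of the list, had 115, 159.9 and 133 FPKM in GSK5 libraries, against 50.4, 56.1 and 183 FPKM in WT libraries (change 0.74, adjusted p = 0.406).

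Maternal and ovule genes gave no call among 8 tested, with a median change of 0.3 and a mean change of 0.02. In 3 members every GSK5 library lay below every WT library, beside 12% of all genes tested. These were MADS1, a factor of lemma and palea identity, MADS6, its AGL6-type relative in floral identity, and MADS29, which directs breakdown of the nucellus. MADS1 had 218, 192 and 183 FPKM in GSK5 libraries, against 324, 333 and 255 FPKM in WT libraries (change -0.61, adjusted p = 0.125). MADS6 had 42.5, 46.7 and 48.7 FPKM in GSK5 libraries, against 59.2, 88.5 and 62.3 FPKM in WT libraries (change -0.58, adjusted p = 0.156). MADS29 had 49.6, 49.5 and 54.5 FPKM in GSK5 libraries, against 65.9, 62.04 and 78.6 FPKM in WT libraries (change -0.41, adjusted p = 0.147). MADS8, the most abundant, had a change of 0.26 (adjusted p = 0.47) with overlapping groups. The summed nucellus and ovule markers were 212 to 253 FPKM in GSK5 libraries and 165 to 253 FPKM in WT libraries.

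Expansins, which loosen cell walls during growth, had the highest list median, 1.24 over 13 members tested, with 12 changes above 0 (63.2% over all genes tested) and none called. EXPB3, the most abundant, had 1069, 1576 and 1238 FPKM in GSK5 libraries, against 111, 489.6 and 1873 FPKM in WT libraries (change 1.45, SE 0.97, adjusted p = 0.407). EXPA2 had 73.5, 101 and 122 FPKM in GSK5 libraries, against 4.44, 10.9 and 168 FPKM in WT libraries, the widest change of the list at 2.14 (SE 1.23, adjusted p = 0.35). In both, WT replicate 3 lay above every GSK5 library and WT replicates 1 and 2 far below. Of the list, EXPA6 alone had all GSK5 libraries above all WT libraries, with 30.4, 32.6 and 29.7 FPKM in GSK5 libraries, against 11.5, 16.8 and 27.8 FPKM in WT libraries (change 0.78, adjusted p = 0.219). Such separation was found in 18.3% of all genes tested. The mean level of the list on the log2 scale was 5.8, 6.15 and 5.95 in the GSK5 libraries, against 3.2, 4.75 and 6.54 in the WT libraries, so the spread within WT exceeded the difference between the groups. Of 14 cell division genes 6 were tested and none was called. KRP1, an inhibitor of cyclin-dependent kinases, had 66.9, 73.1 and 66.2 FPKM in GSK5 libraries, against 33.8, 44.02 and 66.2 FPKM in WT libraries (change 0.56, adjusted p = 0.258). In 4 of the 6 the change was above 0, beside 63.2% of all genes tested, and the replication genes MCM2 and PCNA were below 0. MCM2, of the replicative helicase, had 1.75, 1.48 and 1.55 FPKM in GSK5 libraries, against 2.81, 3.85 and 2.9 FPKM in WT libraries (change -0.68, adjusted p = 0.0903). PCNA, the sliding clamp, had 12.2, 10.4 and 10.7 FPKM in GSK5 libraries, against 19.9, 12.4 and 14.1 FPKM in WT libraries (change -0.42, adjusted p = 0.27).

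Photosynthesis genes, which mark the green pericarp, gave no call among 19 tested, with a median change of -0.08, and 6 members had all GSK5 libraries below all WT libraries, none the reverse (12% and 18.3% of all genes tested). RCA, the activase of Rubisco, came closest to the threshold with 129.97, 105 and 91.2 FPKM in GSK5 libraries, against 207, 211 and 176 FPKM in WT libraries (change -0.87, SE 0.17, adjusted p = 0.0627). CAB1R, a chlorophyll-binding protein, had 96.7, 108 and 66.4 FPKM in GSK5 libraries, against 13.99, 25.98 and 116 FPKM in WT libraries (change 1.31, adjusted p = 0.344). The 4 green pericarp markers summed to 775 to 899 FPKM in GSK5 libraries and 722 to 1146 FPKM in WT libraries. Chlorophyll breakdown genes had a median of -0.49 over 5 tested and no call. NYC1, a chlorophyll b reductase, had 61.96, 50.5 and 64.4 FPKM in GSK5 libraries, against 122, 108 and 62.1 FPKM in WT libraries (change -0.67, adjusted p = 0.24). SGR, the stay-green gene, had 11.97, 8.09 and 12.2 FPKM in GSK5 libraries, against 26.3, 24.2 and 12.3 FPKM in WT libraries (change -0.86, adjusted p = 0.211).

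Embryo and maturation genes had 6 members tested, no call and a median of 0.02, which was below 0 under both other scalings. LEA3, a late embryogenesis abundant protein of dehydrating tissue, had 149.6, 174 and 136 FPKM in GSK5 libraries, against 17.2, 6.7 and 46.2 FPKM in WT libraries. Its change of 3.03 (SE 0.62) was the widest of any list member and the groups did not overlap, yet the test was not passed (adjusted p = 0.0751). The 4 embryo markers summed to 13.1 to 15.5 FPKM in GSK5 libraries and 5.79 to 24.6 FPKM in WT libraries. In the aleurone and lipid transfer list, 1 of 5 members rose and none fell (median 0.46), beside 1.76% called higher of all genes tested. The member that rose, LOC_Os11g40530, whose name could not be checked, had 5.79, 2.2 and 3.38 FPKM in the GSK5 libraries and was listed at 0 in all 3 WT libraries. It passed the filter only through the GSK5 libraries, so its direction was fixed, and the call carries no more than its listed values. Its adjusted p was 0.0175, the call was lost with a pseudocount of 5 and without GSK5 replicate 3 or WT replicate 2 (up to 0.0897), and the ARF4 libraries stood at 5.89, 9.11 and 9.27 FPKM. The 2 aleurone markers summed to 2133 to 2475 FPKM in GSK5 libraries and 1112 to 3122 FPKM in WT libraries. Husk and pollen genes gave no call among 4 tested (median 0.73). CAD2, an enzyme of lignin synthesis, had 82.6, 84.2 and 106 FPKM in GSK5 libraries, against 73.5, 129 and 88.2 FPKM in WT libraries (change -0.06, adjusted p = 0.879). The pollen markers differed between libraries of 1 group, with sums of 1.07 to 75.4 FPKM in GSK5 libraries and 0.14 to 19.8 FPKM in WT libraries, and husk markers summed to 54.8 to 68.3 FPKM in GSK5 libraries and 29.4 to 75.7 FPKM in WT libraries.

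The other lists held no call. Circadian clock genes had a median of 0.11 over 12 tested: GI, the most abundant, had 379.9, 378 and 374 FPKM in GSK5 libraries, against 348, 411 and 368 FPKM in WT libraries (change 0.01, adjusted p = 0.974). PRR95, a clock repressor, had 13.99, 18.2 and 17.7 FPKM in GSK5 libraries, against 2.85, 6.02 and 12.2 FPKM in WT libraries (change 1.30, adjusted p = 0.184), and LUX, of the evening complex, had 21.3, 19.1 and 19.1 FPKM in GSK5 libraries, against 24.1, 26.2 and 24.7 FPKM in WT libraries (change -0.32, adjusted p = 0.151). Defence genes had a median of -0.48 over 7 tested, and CHT3, a chitinase, had 13.1, 3.2 and 26.5 FPKM in GSK5 libraries, against 72.4, 122 and 19.2 FPKM in WT libraries (change -2.27, adjusted p = 0.235), with wide spread in both groups. Folding genes of the endoplasmic reticulum had a median of 0.26 over 8 tested. PDIL1-1, a protein disulfide isomerase, had 276, 296 and 296 FPKM in GSK5 libraries, against 278, 269.7 and 328 FPKM in WT libraries (change -0.01, adjusted p = 0.978), and the chaperone BiP1 had 59.9, 63.5 and 64.7 FPKM in GSK5 libraries, against 26.7, 44.1 and 81.4 FPKM in WT libraries (change 0.44, adjusted p = 0.495). Low-oxygen genes had a median of 0.15 over 3 tested, ADH1, an alcohol dehydrogenase, with 177, 176 and 168 FPKM in GSK5 libraries, against 195, 133 and 148 FPKM in WT libraries (change 0.15, adjusted p = 0.594). PDC2, a pyruvate decarboxylase, had 139, 139 and 115 FPKM in GSK5 libraries, against 122, 59.01 and 124 FPKM in WT libraries (change 0.43, adjusted p = 0.427). The 8 reference genes had a median of 0.04.

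Of 18 SPL and GRF transcription factors tested, 14 had a change above 0 (63.2% over all genes tested), with a median of 0.19. SPL6 had 29.8, 31.4 and 31.3 FPKM in GSK5 libraries, against 18.5, 25.4 and 30.2 FPKM in WT libraries (change 0.34, adjusted p = 0.328), while GRF10 had 20.6, 15.6 and 17.9 FPKM in GSK5 libraries, against 2, 25.2 and 3.14 FPKM in WT libraries (change 1.46, adjusted p = 0.334), its WT replicate 2 lying above all GSK5 libraries. Antioxidant enzymes had a median of -0.26 over 8 tested. The catalase CATA had 618, 646 and 525 FPKM in GSK5 libraries, against 542, 810.04 and 847 FPKM in WT libraries (change -0.28, adjusted p = 0.506). CATB, a second catalase, had 72.3, 75.8 and 72.4 FPKM in GSK5 libraries, against 93.3, 111 and 99.2 FPKM in WT libraries (change -0.45, adjusted p = 0.0999), with no overlap. The 2 alpha-amylases tested had a median of -0.49, AMY2A with 12.5, 11.4 and 9.54 FPKM in GSK5 libraries, against 30.2, 12.5 and 9.56 FPKM in WT libraries (change -0.44, adjusted p = 0.515). AMY3B had 0.77, 0.46 and 0.79 FPKM in GSK5 libraries, against 1.5, 1.35 and 1.44 FPKM in WT libraries (change -0.54, adjusted p = 0.131). It passed the filter only through the WT libraries, so its direction, which enters the list median, was fixed. Aquaporins had a median of 0.26 over 8 tested. The water channel PIP1-1 had 333, 370.2 and 313 FPKM in GSK5 libraries, against 182, 256 and 274 FPKM in WT libraries (change 0.53, adjusted p = 0.213), and PIP1-3 had 112, 124 and 105 FPKM in GSK5 libraries, against 17.99, 95.8 and 125 FPKM in WT libraries (change 0.90, adjusted p = 0.458). Nitrogen assimilation genes had a median of 0.16 over 8 tested. Jasmonate genes had a median of 0.54 over 6 tested and in 3 of them all GSK5 libraries lay above all WT libraries, beside 18.3% of all genes tested. JAR1, which makes the active jasmonoyl-isoleucine, had 29.9, 32.3 and 33.5 FPKM in GSK5 libraries, against 4.03, 8.85 and 22.1 FPKM in WT libraries (change 1.65, SE 0.52, adjusted p = 0.17). AOC, an allene oxide cyclase of jasmonate synthesis, had 94.2, 89.6 and 101 FPKM in GSK5 libraries, against 45.4, 89.9 and 63.3 FPKM in WT libraries (change 0.56, adjusted p = 0.262).

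**Figure D5:**
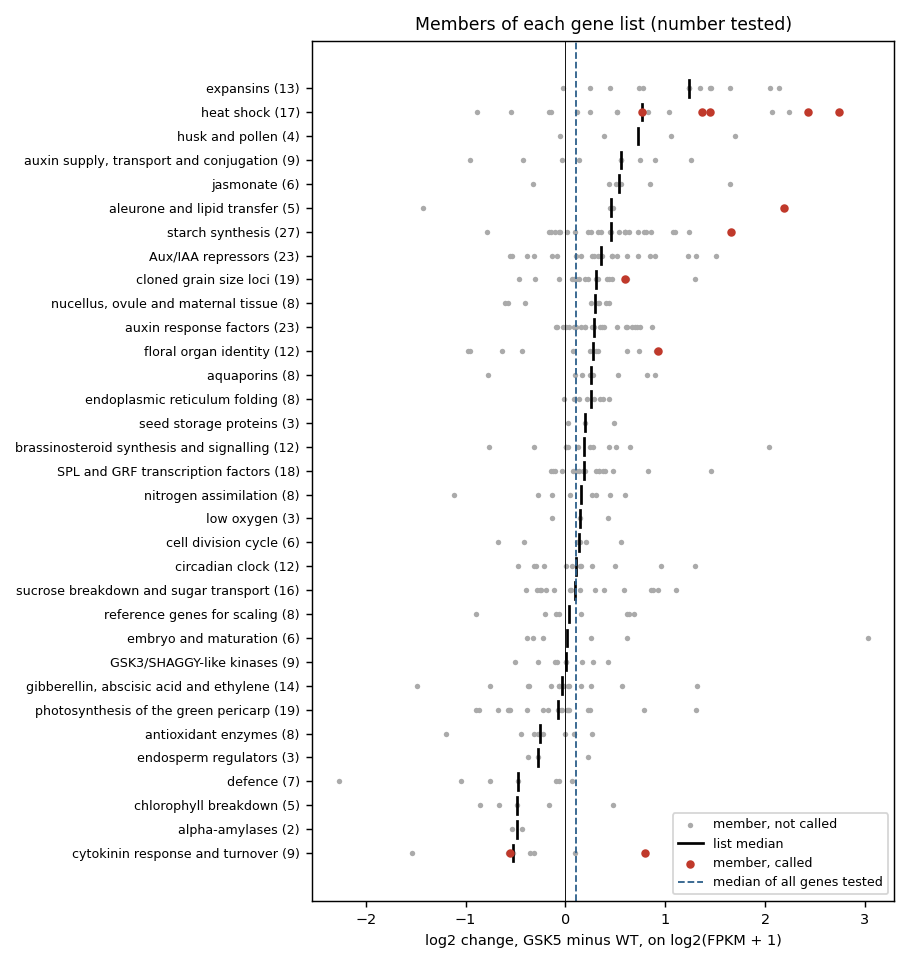
Change on the log2(FPKM + 1) scale of every tested member (points) of the 33 gene lists, ordered by list median (black bars), with called members in red and the median of all genes tested, 0.11, as a dashed line. The heat shock row holds 5 called members, all to the right, and the cytokinin row has the lowest median, -0.53.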

How the data were processed

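Per the labels' protocols, Trizol was used for RNA extraction and an Illumina TruSeq kit for the libraries. The authors' deposited table gives FPKM values, rounded to 2 decimals, with 1 column per library for 55986 rice gene models under MSU identifiers. Bowtie 0.12.2 is named in the submitters' processing notes beside mm8, a mouse build that cannot hold rice gene models. The rice build, annotation and quantifier were not given in the sources used here. FPKM values carry no counts, so no count model was fitted and depth is unknown.

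Genes at 1 FPKM or more in at least 3 of the 6 GSK5 and WT libraries were tested as log2(FPKM + 1) with limma 3.58.1 in R 4.3.3. The fit held a mean for each group and used a mean-variance trend, without robust estimation. Two-sided p-values were adjusted by the Benjamini-Hochberg method over the 22676 genes tested, with a threshold of 0.05 and no fold minimum. The fit was also run on simulated data, with the same spread in both groups and changes placed only in genes of higher level. In the real libraries the median SD was 0.112 in GSK5 and 0.271 in WT. The simulation therefore does not check the p-values for unequal spread or for genes of low level. Plots were drawn with matplotlib 3.10.9 and tables read with pandas 2.3.3 and numpy 2.4.6 under Python 3.11.15. With 3 libraries against 3, an exact permutation test of a single gene cannot go below p = 0.1, so none was run.

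The members and the gene lists were chosen with earlier results of these data known, and 8 of the 33 lists (floral organ identity, SPL and GRF factors, antioxidant enzymes, alpha-amylases, aquaporins, nitrogen assimilation, jasmonate and chlorophyll breakdown) were added after the values could be seen. Their loci and symbols came from memory. Of 437 loci 434 are in the table, and 282 of their names were checked by a RefSeq symbol or synonym on the same chromosome within 1 Mb of the position interpolated from other loci. Names of the other 152 are unchecked. Lists are described by counts and medians, with no set test. Genes were named by rule: the GSK5 and ARF4 loci, the widest changes among non-overlapping calls (12 in each direction, of which 2 are given by identifier), list members called, and in each list the most abundant member and, with no call, the one of widest change. Unchecked loci outside the calls were counted without being named. Other members, such as RR9, SPL13 and SUT4, were chosen after their values were seen. Alternatives were 2 pseudocounts, 2 filters, 2 scalings, the replicate number as a block, 4 other fits and leaving out each library.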

Additional observations from a re-analysis of the deposited data

How the results depend on the processing

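Of 17 alternative settings, 10 kept the number of called genes within 1.5 times of 552, from 449 under quantile normalization to 653 with no filter on low values. Leaving out each library in turn gave 212 to 4430 calls, of which 194 to 2771 were higher and 16 to 1659 lower, the highest numbers being those without WT replicate 3; without WT replicate 1 there were 512. Array quality weights, whose estimation stopped before converging and which gave WT replicate 2 a weight of 6.34 against 0.178 and 0.2 for WT replicates 1 and 3, gave 11738 calls, 7588 higher and 4150 lower. The replicate number as a block gave 172 calls, 148 higher and 24 lower, 169 of them shared with the 552. Deviations of same-numbered libraries from their group means correlated at 0.071, -0.102 and -0.356, and those of differently numbered libraries at -0.329 to 0.361. Deviations sum to 0 within each group, so these values depend on each other and cannot decide whether the numbers pair the libraries. With all 9 libraries in the fit there were 508 calls, 389 of them shared. Where these counts moved by more than 1.5 times, the cause was not tested. The median change over all genes tested was 0.11 as reported, 0.02 under median-of-ratios scaling and -0.01 under quantile normalization, which moved it by over 0.1; the share of calls that were higher was 72.1%, 73.1% and 65.9% in these fits. List medians kept their sign under both scalings except for GSK3/SHAGGY-like kinases (0.01, -0.1 and -0.06), embryo and maturation (0.02, -0.08 and -0.14), reference genes (0.04, -0.06 and 0.12) and the circadian clock (0.11, 0 and 0.11). Of 84 genes followed through the alternatives, 6 changed sign in at least 1, none of them called: GluA2 (-0.05 under median-of-ratios scaling, -0.17 under quantile normalization, -0.03, -0.01 and 0.14 without WT replicates 1, 2 and 3), PDIL1-1 (0.09 with array weights, 0.08 under quantile normalization, 0.03 without GSK5 replicate 1, 0.08 without WT replicate 3), CAD2 (0.0 without GSK5 replicate 1, 0.16 and -0.24 without WT replicates 2 and 1), GI (-0.11 with array weights, -0.1 under median-of-ratios scaling, -0.04 and -0.01 without WT replicates 1 and 3), GRF10 (-0.33 with array weights) and AMY2A (0.02 and -0.76 without WT replicates 1 and 3). Thresholds of the genes near 0 in WT moved their number between 43 and 109, thresholds chosen after seeing the data. The table gives no depth, so a level listed at 0 sets no limit on expression.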
